A study of Homo sapiens with 4 samples.

Results

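The genes described here encode the proteins of the cytosolic and the mitochondrial ribosome. They were taken from the array by the form of their RefSeq symbol: RPL or RPS followed by a number, with RPLP0, RPLP1, RPLP2 and RPSA, for the cytosolic class, and MRPL or MRPS followed by a number for the mitochondrial class. Pseudogenes, kinases of the RPS6K family and Y-linked genes were left out. This gave 160 of the 19102 genes that could be named, 84 cytosolic (52 of the large and 32 of the small subunit, by symbol) and 76 mitochondrial (48 and 28). No measured value entered the choice. All 160 had at least 1 probe well above background and were tested.

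The RNA came from PC3, a human prostate cancer cell line that grows without androgen. Cells were infected for 48 h with a lentivirus carrying an shRNA against ALKBH3, a demethylase that repairs alkylated nucleic acids, or a control shRNA, which targets GFP, and were then collected 48 h or 96 h into puromycin selection. Each of the 4 combinations was hybridised once, to a single-colour Agilent array, so each shRNA had 2 arrays, 1 per time point. Virus and selection are thus common to all arrays, the labels name a single ALKBH3 shRNA, and the sources used here do not say whether the cultures were independent, so p-values measure only the spread between these samples. Unless a block is named, the fit leaves out the other factor. The spread within an shRNA then includes the difference between time points and slides, and the spread within a time point that between the shRNAs. Each time point had a slide of its own, with the control at the first position and the knockdown at the second, so that slide and time, and position and shRNA, cannot be told apart.

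Ribosomal proteins surround the ribosomal RNA of the large and small subunits, and many of the cytosolic class are assembled with it in the nucleolus. The mRNAs of cytosolic ribosomal proteins are among the most abundant of a growing cell, and most begin with a C followed by a run of pyrimidines, the 5′ terminal oligopyrimidine (TOP) tract, through which mTOR sets their translation. Mitochondrial ribosomal proteins are also encoded in the nucleus, but are imported into mitochondria, where their ribosome translates the few proteins of the mitochondrial genome. Several cytosolic proteins have paralogs made from a second gene, such as RPL3L of muscle or RPL10L and RPL39L of the testis.

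The start of transcription set the classes apart before any expression value was considered. RefSeq start sites (GRCh38.p14) were matched for 67 cytosolic and 68 mitochondrial genes. A TOP-like start, read as C at the annotated first base followed by at least 4 bases that are each C or T, was present for 47 cytosolic genes (70.1%), 6 mitochondrial genes (8.82%) and 5.14% of all 27305 genes with such sequence. The 30-base windows below, 10 bases before the start and 20 from it, are of genes on which the results below turn, with the TOP-like tract in capitals and windows without one all in lower case.
RPL14 (chr3:40457329-40457358, + strand): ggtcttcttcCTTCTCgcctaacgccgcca
RPL22 (chr1:6199576-6199605, - strand): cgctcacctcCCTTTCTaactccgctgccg
RPL22L1 (chr3:170870176-170870205, - strand): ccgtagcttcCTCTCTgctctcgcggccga
RPL27A (chr11:8682782-8682811, + strand): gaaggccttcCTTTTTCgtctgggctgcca
RPL39 (chrX:119791611-119791640, - strand): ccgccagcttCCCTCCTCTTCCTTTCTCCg
RPS23 (chr5:82278335-82278364, - strand): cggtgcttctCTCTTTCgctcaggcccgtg
RPS27 (chr1:153990752-153990781, + strand): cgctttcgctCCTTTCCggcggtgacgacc
RPS27L (chr15:63157458-63157487, - strand): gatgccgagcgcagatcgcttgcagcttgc
MRPL12 (chr17:81703357-81703386, + strand): cggctagagcgtcatttccggctcgaatgc
MRPL37 (chr1:54200157-54200186, + strand): ggcgcccggtctcattcgttcccagcaggc
MRPS10 (chr6:42217842-42217871, - strand): ctgagaggtcgggaccggcaagatggcggc
The paralog RPL22L1 keeps the TOP-like start of RPL22, whereas RPS27L does not keep that of RPS27. The motif CCGGAAG, the core of sites bound by ETS factors, searched on both strands of the 300 bases around each start, was found for 24 cytosolic genes (35.8%), 30 mitochondrial genes (44.1%) and 12.2% of all genes.

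Signals are given as log2 of the processed spot intensity minus the 75th percentile of the array, and differences as log2 units. The 75th percentile lay between 2150 and 2394 intensity units, no member spot was saturated, and 67.0% to 70.9% of probes were above background. ALKBH3 read -0.74 and -0.89 in control cells and -2.48 and -2.41 in knockdown cells at 48 h and 96 h. The epithelial markers KRT8, KRT18, EPCAM and CDH1 were above background on all 4 arrays, as was KLK2 of the androgen-dependent prostate, while KLK3 was on 0. All 4 markers of cells that a culture should lack were also above background on all 4 arrays, so this call does not set them apart. PTPRC, CD3E and PECAM1 read between -5.65 and -3.14 and COL1A1 between -1.44 and -0.26. EPCAM was higher by 0.98 with the ALKBH3 shRNA and CDH1 differed by -1.33 between 96 h and 48 h, and their part in the results below was not tested.

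The first question was whether depletion of ALKBH3 changed the mRNAs of either ribosome. Their levels differed little. In bulk RNA, fewer cells of a type and less RNA per cell cannot be told apart. No member passed a 2-fold change with an unadjusted p below 0.05, which 1.27% of all 14556 genes tested did, and none had a Benjamini-Hochberg adjusted p below 0.05 in limma, where the share of all genes was 0%. With the time point as a block 4.46% of all genes passed the adjusted threshold and again 0 members. An unadjusted p below 0.05 was reached by 1 member, MRPS10, which was lower, beside 3.63% of all genes lower and 4.70% higher, and by 0 mitochondrial members lower when any 1 array was left out. The fitted difference was within 0.25 log2 of 0 for 78 of 84 cytosolic genes (92.9%) and 74 of 76 mitochondrial genes (97.4%), against 75.8% of all genes. The members were bright, with median signals of 6.16 (cytosolic) and 2.49 (mitochondrial) in control cells at 48 h, whereas all genes include much dimmer ones. The part of signal level in this contrast was not tested.

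Within this narrow range the cytosolic class stood lower at 48 h, while its sign at 96 h depended on the normalization. Its median difference, ALKBH3 shRNA minus control shRNA, was -0.109 at 48 h, with 66 of 84 genes lower, and 0.023 at 96 h, with 49 of 84 higher. The authors' normalized values gave -0.0775 and -0.0256, and normexp with quantile normalization -0.0578 and -0.0006, so that the gap between the time points was smaller there and the class was lower at both. Over both time points it was -0.0305 (quartiles -0.10 and 0.0334), beside -0.003 for all genes (quartiles -0.12 and 0.13). The mitochondrial class gave -0.0222 at 48 h (0.0104 with quantile normalization), 0.0475 at 96 h and 0.0161 over both, with 42 of 76 genes higher. The latter median was -0.0058 with arrays centred on their median (35 of 76 higher), and the split of cytosolic genes, 29 of 84 higher, was 38 of 84 with quantile normalization. The difference between the time points was not tested. Large and small subunits were alike in this: the cytosolic medians at 48 h were -0.11 and -0.11, and at 96 h 0.0308 and 0.012. Both arrays of one shRNA lay beyond both of the other for 20 cytosolic genes lower (23.8%, against 19.1% of all genes) and 7 higher (8.33%, against 17.4%), and for 10 mitochondrial genes lower (13.2%) and 13 higher (17.1%).

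Across genes the differences at 48 h and 96 h followed each other less for cytosolic members (Pearson r = 0.180, 84 genes, same sign for 53.6%) than for mitochondrial members (r = 0.493, 76 genes, 59.2%) or all genes (r = 0.673, 70.2%), values that are descriptions of 4 arrays and rest on genes that share them. At a single time point 1 array is set against 1 and there is no test. A 1.5-fold difference was found there for 1 member at 48 h, beside 7.09% of all genes, and for 0 at 96 h, beside 6.51%. That member was RPL27A, lower on a probe of low signal for its class.

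**Figure D1:**
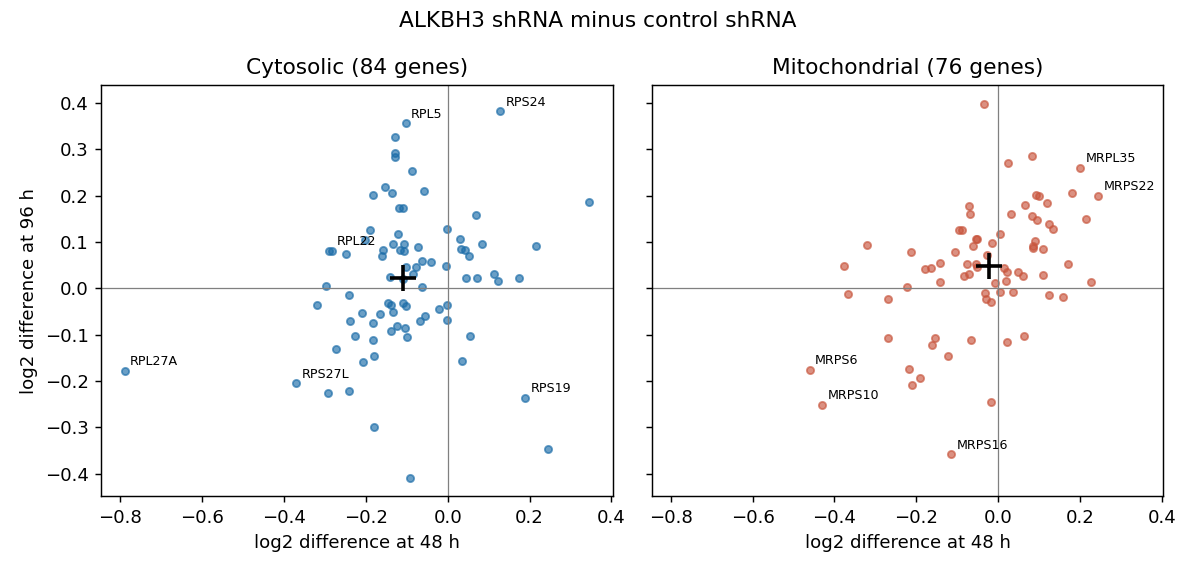
Log2 difference between ALKBH3 shRNA and control shRNA at 48 h (x axis) and 96 h (y axis) for each cytosolic (left) and mitochondrial (right) ribosomal protein gene, 1 point per gene and 1 array per group at each time point, with a cross at the class median. The cytosolic cross lies at -0.109 and 0.023, and most cytosolic points lie left of 0. RPL27A, read by a probe of low signal for its class, lies apart at -0.79 at 48 h.

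The array of control cells at 48 h enters the 48 h difference, and it was the one on which the cytosolic genes read highest. Taken against each gene's mean over the 4 arrays, the cytosolic median was 0.0621 on that array, -0.0442 with the ALKBH3 shRNA at 48 h, -0.0202 in control cells at 96 h and 0.0007 with the ALKBH3 shRNA at 96 h, and 44 of 84 genes had their highest value there. Over all genes the same medians ran from -0.0087 to 0.0047. Without that array the cytosolic median difference was -0.002, and the cytosolic minus the mitochondrial median, -0.0466 over both time points, was 0.0189. The control side was then the 96 h array alone, so both values also hold part of the difference between the time points and slides. The mitochondrial genes showed another order, -0.04 and -0.0493 at 48 h and 0.0244 and 0.0743 at 96 h in control and ALKBH3 shRNA cells, with 40 of 76 highest on the last of these.

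**Figure D2:**
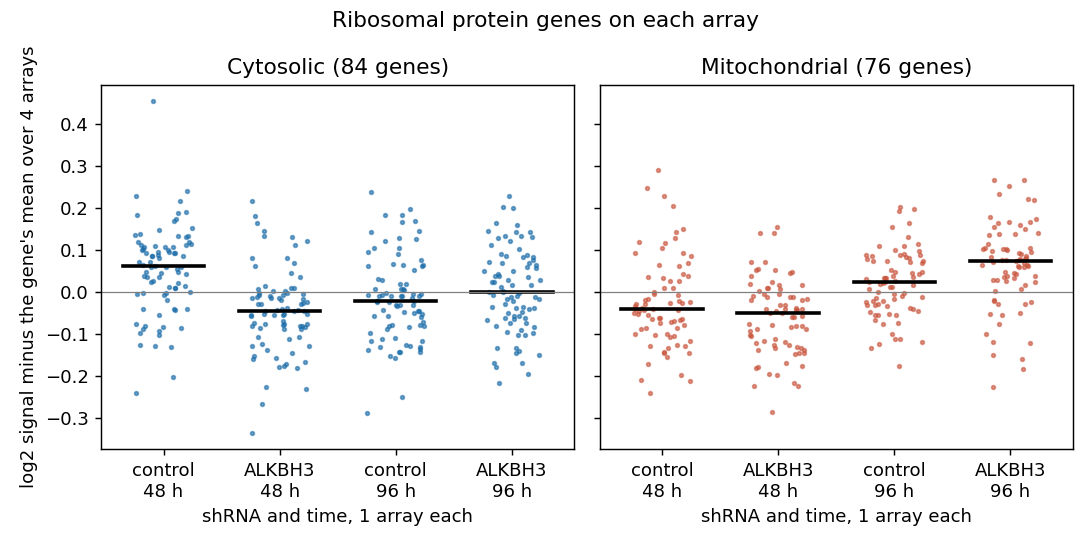
Log2 signal of each gene on each of the 4 arrays minus that gene's mean over the 4 arrays, for cytosolic (left) and mitochondrial (right) ribosomal protein genes, with 1 point per gene and a bar at the median. The cytosolic bar is highest in control cells at 48 h (0.0621), and the mitochondrial bars of 96 h (0.0244 and 0.0743) lie above those of 48 h (-0.04 and -0.0493).

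Among cytosolic genes that differed in the same direction at both time points, RPL27A, a protein of the large subunit, was lowest with the ALKBH3 shRNA. It read -1.32 in control and -2.10 in knockdown cells at 48 h, and -1.74 and -1.92 at 96 h. Its 1 probe thus lay far below the cytosolic median, which was 6.16 in control cells at 48 h. Whether this probe reports the main RPL27A mRNA was not tested. The knockdown arrays lay below both control arrays, and the fitted difference was -0.48 (SE 0.19, limma adjusted p = 0.612). Without the control array of 48 h, which left the control of 96 h alone, it was -0.27, a value that also holds part of the difference over time. RPS27L, a paralog of RPS27 that p53 can induce, read 3.61 and 3.24 at 48 h and 3.69 and 3.49 at 96 h, a difference of -0.29 (SE 0.14, limma adjusted p = 0.704). RPL10L, whose gene is a retrocopy of RPL10, read 4.63 and 4.33, then 4.61 and 4.39, a difference of -0.26 (limma adjusted p = 0.654). For each of these genes the groups did not overlap, and none passed the test.

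On the higher side, RPS24 of the small subunit, one of the proteins mutated in Diamond-Blackfan anaemia, read 7.23 in control and 7.36 in knockdown cells at 48 h, and 6.99 and 7.37 at 96 h. The difference was 0.26 (limma adjusted p = 0.740). RPL35A of the large subunit, mutated in the same disease, differed by 0.15 (limma adjusted p = 0.839). The groups did not overlap for either gene, though for RPS24 the control and the knockdown of 48 h were 0.13 apart, and neither passed the test.

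In the mitochondrial class the 3 lowest differences were of the small subunit, while the medians of small (0.016) and large (0.0171) were alike. MRPS10 read 2.78 in control and 2.35 in knockdown cells at 48 h, and 2.63 and 2.38 at 96 h. Both knockdown values lay below both control values, and the difference was -0.34 (SE 0.12, unadjusted p = 0.0426 in limma, adjusted p = 0.579, and adjusted p = 0.112 with the time point as a block). MRPS6 read 5.49 and 5.03, then 5.22 and 5.05, a difference of -0.32 (limma adjusted p = 0.666). MRPS16, mutated in a mitochondrial translation disorder of newborns, read 5.43 and 5.31, then 5.45 and 5.09, a difference of -0.24, while its other probe differed by 0.0858. The highest differences were 0.23 for MRPL35, 0.22 for MRPS22, also a disease gene of mitochondrial translation, and 0.19 for MRPL57. MRPS22 read 1.28 and 1.52 at 48 h and 1.26 and 1.46 at 96 h, so that its groups did not overlap. None of these passed the adjusted test.

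The second comparison was of 96 h with 48 h of selection, over both shRNAs. It uses the same 4 arrays as the first, so the values of both stand side by side and are not independent. Mitochondrial ribosomal protein genes were mostly higher at 96 h. Their median difference was 0.0823 (quartiles -0.0074 and 0.17), with 56 of 76 genes higher, beside -0.0079 for all genes (quartiles -0.18 and 0.16). It was 0.0433 in control shRNA cells and 0.13 in ALKBH3 shRNA cells, and 0.11 for the small subunit (22 of 28 higher) and 0.0706 for the large (34 of 48). For 36 mitochondrial genes (47.4%) both 96 h arrays lay above both 48 h arrays, against 26.9% of all genes, and for 5 (6.58%) both lay below, against 26.4%. Centring each array on its median instead of its 75th percentile gave 0.13 for the class (64 of 76 higher) and the authors' own normalized values 0.0439 (44 of 76).

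For the cytosolic class the direction between the time points depended on the normalization. Its median was -0.0334 over both shRNAs, -0.0866 in control cells and 0.0303 in knockdown cells, with 34 of 84 genes higher. It was lower with each shRNA, at -0.042 in control and -0.0419 in knockdown cells, with the authors' normalized values, and at -0.0542 and -0.0293 with normexp and quantile normalization. Groups that did not overlap were found for 13 cytosolic genes higher (15.5%, against 26.9% of all genes) and 15 lower (17.9%, against 26.4%). The median changed sign, to 0.0123 with 48 of 84 genes higher, with centring on the median of each array, and without the control array of 48 h it was 0.0349. The latter leaves the ALKBH3 shRNA array alone at 48 h, so it also holds part of the difference between the shRNAs. The cytosolic minus the mitochondrial median, which does not depend on how an array is centred, was -0.13 in control cells, -0.098 in ALKBH3 shRNA cells and -0.12 over both. Leaving out 1 array at a time moved it between -0.15 and -0.0619, the latter without the control array of 48 h.

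No member passed the 2-fold cutoffs in this comparison (1.04% of all 14559 genes tested did) or had an adjusted p below 0.05 (0% of all genes). With the shRNA as a block 13.4% of all genes passed the adjusted threshold and 0 members did, the nearest being RPL22L1 (adjusted p = 0.0505 in limma). An unadjusted p below 0.05 was reached by 5 cytosolic genes (among them RPL10, RPL14, RPL22L1 and RPL39L) and 4 mitochondrial genes (MRPL12, MRPL15, MRPL18 and MRPL37) that were higher at 96 h, beside 9.89% of all genes, and by 1 that was lower (RPS23), beside 9.38%. That is 5.95% of the cytosolic and 5.26% of the mitochondrial genes on the higher side. With 1 array left out, 0 to 1 cytosolic and 0 to 2 mitochondrial genes were past it on that side. A 1.5-fold difference was found for 0 members in either shRNA, beside 8.38% of all genes in control and 10.1% in ALKBH3 shRNA cells.

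**Figure D3:**
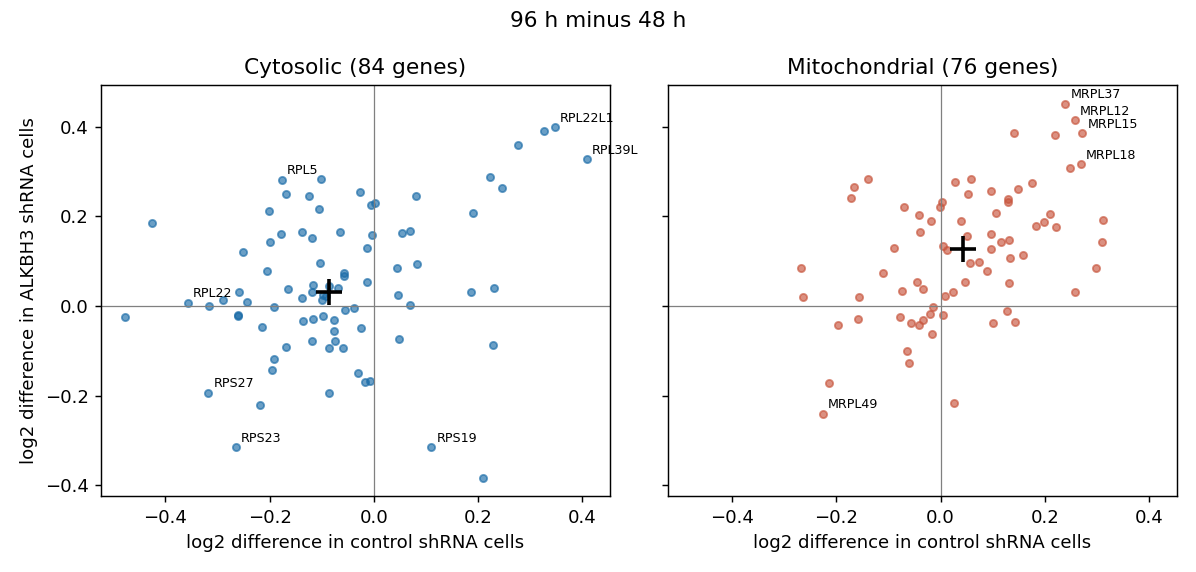
Log2 difference between 96 h and 48 h in control shRNA cells (x axis) and ALKBH3 shRNA cells (y axis) for each cytosolic (left) and mitochondrial (right) ribosomal protein gene, 1 point per gene and 1 array per group, with a cross at the class median. The mitochondrial cross lies at 0.0433 and 0.13, the cytosolic cross at -0.0866 and 0.0303, and RPL22L1, RPL39L, MRPL37, MRPL12 and MRPL15 lie at the upper right.

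RPL22L1, the paralog of RPL22, had the highest difference of all members at 96 h. It read 3.51 in control and 3.54 in ALKBH3 shRNA cells at 48 h, and 3.85 and 3.94 at 96 h, a difference of 0.37 (SE 0.0918, unadjusted p = 0.0132, adjusted p = 0.166, limma). RPL39L, the paralog of RPL39, read 1.11 and 1.23, then 1.52 and 1.56, a difference of 0.37 (adjusted p = 0.174, limma). RPL14 read 6.28 and 6.18, then 6.61 and 6.57, a difference of 0.36 (adjusted p = 0.176, limma). All 3 were higher at 96 h with each shRNA and by a similar amount, from 0.33 to 0.41.

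The 3 largest cytosolic falls with the same direction in each shRNA were of the small subunit. By median the large subunit was the lower, at -0.0359 (33 of 52 lower) against -0.0092 for the small (17 of 32 lower). RPS27 read 7.22 and 6.997 at 48 h and 6.91 and 6.80 at 96 h, a difference of -0.26 (limma adjusted p = 0.336). RPS9 read 5.44 and 5.31, then 4.96 and 5.29, a difference of -0.25 that was -0.48 in control and -0.0245 in ALKBH3 shRNA cells. RPS23, a protein of the decoding centre, read 5.71 and 5.78, then 5.45 and 5.47 on its brighter probe, a difference of -0.29 (unadjusted p = 0.0294 in limma, adjusted p = 0.213). Its other probe differed by 0.26 in the opposite direction, and the mean over both probes was -0.0142, so that RPS23 has no settled direction.

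Of the mitochondrial genes, MRPL37 read 2.60 and 2.51 at 48 h and 2.84 and 2.97 at 96 h, a difference of 0.35 (SE 0.10, adjusted p = 0.198, limma). MRPL12, the stalk protein of the mitochondrial large subunit, which also binds mitochondrial RNA polymerase, read 2.36 and 2.31, then 2.62 and 2.72, a difference of 0.34 (adjusted p = 0.193, limma). MRPL15 differed by 0.33 and MRPL18, which takes part in the import of 5S ribosomal RNA, by 0.29. Both probes of MRPL37 (0.21 and 0.35) and of MRPL12 (0.24 and 0.34) were higher at 96 h. The lowest were MRPL49, at 3.06 and 3.104 and then 2.83 and 2.86, a difference of -0.23 (adjusted p = 0.267, limma), MRPL53 (-0.19) and MRPL23 (-0.12).

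Of the 7 cytosolic paralogs, RPL22L1, RPL39L, RPS27L and RPL7L1 differed over time in the opposite direction to the genes they are copies of. RPS27L gave 0.16 against -0.26 for RPS27, and RPL7L1 gave 0.0359 against -0.0844 for RPL7. RPL26L1 (-0.0348) stood close to RPL26 (-0.0361), and RPL3L (-0.0897) and RPL3 (-0.0633) were both lower. RPL22 read 5.09 and 4.80 at 48 h and 4.73 and 4.81 at 96 h, so that only the control array of 48 h stood high, and its difference over time was -0.18 against 0.37 for RPL22L1. RPL39 read 6.07 and 6.06, then 5.87 and 5.92, a difference of -0.17 with groups that did not overlap, against 0.37 for RPL39L. The difference between paralog and parent was not tested. The second probe of RPL22 gave 0.0872, that of RPL3 0.158 and the other probes of RPL7 0.0615 and 0.12, so the direction of these parents depended on the probe. The other probe of RPL26 gave -0.22, so its closeness to RPL26L1 also depended on the probe. RPL10 was higher at 96 h by 0.32 (6.31 and 6.17, then 6.58 and 6.53), and RPL10L by 0.0204. The probes of RPL10 spread from -0.0528 to 0.32 over time, however, so that this value belongs to the brightest of its 4 probes.

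By shRNA the paralogs RPS27L (-0.29), RPL10L (-0.26) and RPL3L (-0.24) were lower with groups that did not overlap, and their parents RPS27 (-0.16), RPL10 (-0.0919) and RPL3 (-0.18) differed in the same direction. RPL3L read between -5.21 and -4.88, the lowest signals of the cytosolic class. RPL7L1 (0.0329), RPL26L1 (-0.0277), RPL7 (-0.0878) and RPL26 (-0.0015) differed little. Signals of a paralog and its parent come from different probes and are not compared as levels. Ribosomal protein genes also have many processed pseudogenes, and how far related transcripts contribute to a probe was not tested.

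**Figure D4:**
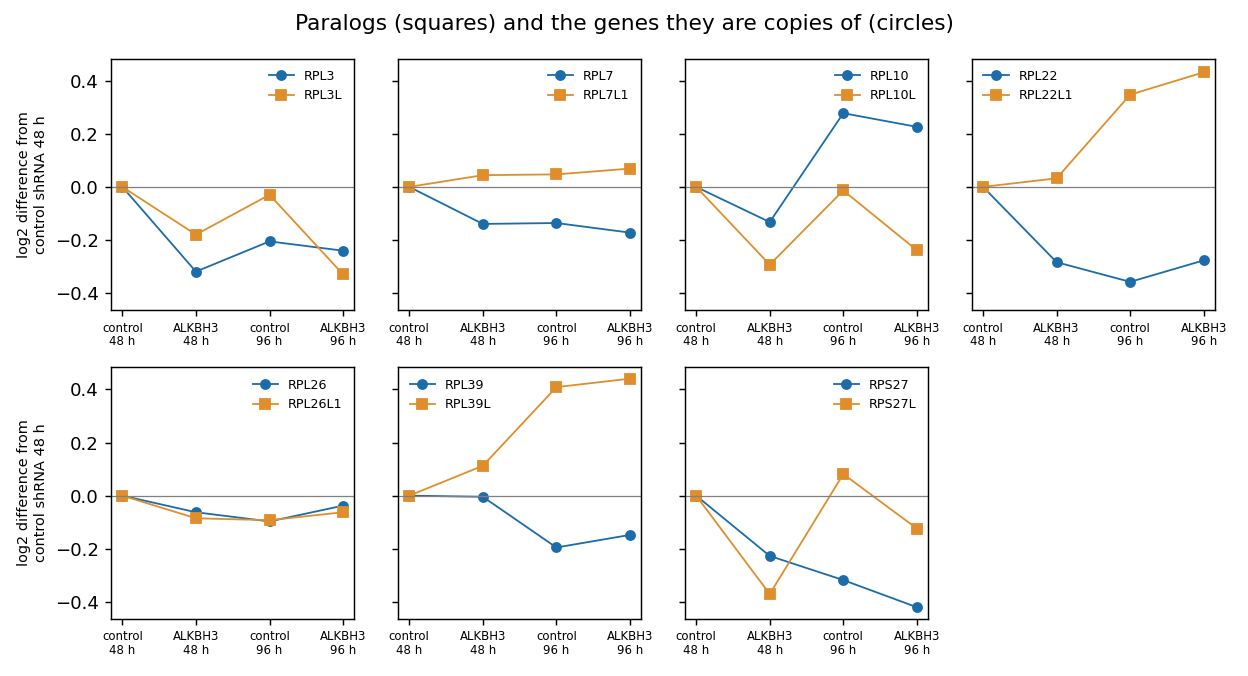
Log2 signal of 7 cytosolic paralogs (squares) and the genes they are copies of (circles) on each of the 4 arrays, as the difference from control shRNA cells at 48 h, with 1 array per point and no error bar. RPL22L1 and RPL39L are higher on both 96 h arrays while RPL22 and RPL39 are not, and RPS27L and RPL10L are lower with the ALKBH3 shRNA at each time.

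Proteins with roles outside the ribosome were read in the same way. RPL5 and RPL11, which with 5S ribosomal RNA bind MDM2, a regulator of p53, gave shRNA differences of 0.13 and -0.0057. RPL5 read 6.12 and 6.02 at 48 h and 5.95 and 6.30 at 96 h, so that its shRNA difference was -0.10 at the first and 0.36 at the second, while another of its 3 probes gave -0.0817 and -0.0724. RPS19, the protein most often mutated in Diamond-Blackfan anaemia, read 6.08 and 6.27 and then 6.19 and 5.96 on its brighter probe, a difference of 0.19 and then -0.24. Its other probe gave -0.0906 and then 0.0697, the opposite sign at each time, so that RPS19 has no settled direction. The stalk proteins RPLP0 (-0.16), RPLP1 (-0.0958) and RPLP2 (-0.0892) were each lower with the ALKBH3 shRNA at both time points on the probe used. RPLP0 read 7.27 and 7.09, then 7.23 and 7.09, with groups that did not overlap (limma adjusted p = 0.816), and its other probe gave -0.15 and 0.0025. RPLP1 was higher at 96 h by 0.25 (limma adjusted p = 0.270) and RPLP2 was not (-0.043).

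RPSA, also known as the laminin receptor precursor, differed by -0.13 by shRNA and RPS6, the target of S6 kinase, by -0.0458. The mitochondrial genes MRPS18A, MRPS18B and MRPS18C encode 3 related proteins, the first of which sits in the large subunit. Their shRNA differences were 0.12, 0.15 and 0.0692, and only for MRPS18A did the groups not overlap. On the probes used all were higher with the ALKBH3 shRNA at both time points, but the other probe of MRPS18C gave 0.11 at 48 h and -0.18 at 96 h.

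The choice of probe limits the single genes. There were 157 probes for the cytosolic and 88 for the mitochondrial class, of which 156 and 88 were above background on all arrays, and the last, 1 of 4 probes of RPL28, on none. For the 39 cytosolic genes with several tested probes, these differed within a gene by a median of 0.0911 by shRNA and 0.16 over time, and all had 1 sign for 23 and 22 genes. For the 12 such mitochondrial genes the medians were 0.0348 and 0.14, with 1 sign for 8 and 6. The widest ranges over time were 0.62 for MRPL45, 0.55 for RPS23 and 0.54 for RPS29, larger than any member's fitted difference. Replicate spots of the 11 member probes that had them varied by a median SD of 0.0687 to 0.0862 on an array.

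The genes that build and run ribosomes were followed beside the proteins themselves. Of 56 ribosome biogenesis factors tested, 51 were higher at 96 h, with a median of 0.19, and for 40 (71.4%, against 26.9% of all genes) both 96 h arrays lay above both 48 h arrays. POLR1A, the largest subunit of RNA polymerase I, read -0.43 and -0.44 at 48 h and 0.0627 and 0.13 at 96 h, a difference of 0.53. With the shRNA as a block it passed the adjusted threshold (adjusted p = 0.0298, limma), as did HEATR1 (0.49), a factor of the small subunit processome, and BOP1 (0.50), needed for the large subunit. These were 3 of the 56 factors, beside 13.4% of all genes that passed in either direction with this block, so their number does not set the list apart. Of 47 cytosolic translation factors 35 were higher, with a median of 0.0592, and 4 (EIF1AX, EIF4E, EIF5B and ABCE1, 8.51%, against 9.89% of all genes) reached an unadjusted p below 0.05. Of 36 factors of mitochondrial translation 22 were higher, with a median of 0.0304, and MRM1, a methyltransferase of mitochondrial ribosomal RNA, was the 1 of them that passed with the block (0.58, adjusted p = 0.0281, limma).

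By shRNA the same lists had medians of 0.0694 (40 of 56 higher), 0.0083 (25 of 47) and 0.0309 (22 of 36), and 1 gene with an unadjusted p below 0.05, EFL1, the GTPase that releases a factor from the nascent large subunit. EFL1 read 1.16 and 0.75 at 48 h and 0.98 and 0.63 at 96 h, a difference of -0.38 (unadjusted p = 0.0395 in limma, and adjusted p = 0.0778 with the time point as a block). Ribosomal proteins whose symbols do not follow the rule, 4 cytosolic (among them FAU, RACK1 and RPL36AL) and 6 mitochondrial (among them DAP3 and PTCD3), had medians of -0.0543 and -0.0282 by shRNA and of -0.0324 and 0.0949 over time, with no unadjusted p below 0.05.

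Last, the cytosolic genes were divided by their start site. The 47 genes with a TOP-like start had a median shRNA difference of -0.11 at 48 h (36 lower) and 0.0569 at 96 h (19 lower). The 20 without one had -0.13 (17 lower) and -0.0154 (10 lower). Most genes of both groups were therefore lower at 48 h, and the arrays measure the amount of mRNA, not its translation. Between the time points the medians were -0.0321 and -0.004. The groups rest on the annotated first base, so the second may hold genes with a tract nearby. RPL4, counted without one, has a run of pyrimidines a few bases past its annotated start.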

How the data were processed

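Total RNA of 4 PC3 cultures was labelled with Cy3 and hybridised to single-colour Agilent arrays. Spot intensity values were deposited by the authors as processed by Feature Extraction 10.7.3.1, with flags for background and outliers. A table of log2 values normalized by the authors with limma served as an alternative. Here, log2 processed signal was centred on the array's 75th percentile, flagged spots were removed and spots averaged per probe. Probes were kept if well above background on both arrays of a group, and each gene took its brightest probe. Genes were named by RefSeq accession, 24910 of 34127 probes. Both comparisons were fitted in limma 3.58.1 (R 4.3.3) over all genes without a covariate, with Benjamini-Hochberg adjustment over all genes. Named genes are the 3 highest and 3 lowest members of each class moving the same way in both pairs of arrays, the paralogs and their parents, and 12 members of known wider role. MRPL18, MRPL45, RPS29 and RPL28 were named after their values were seen, and some genes are not reported here. Members and lists were chosen with earlier results of these data known. The fit was tested on simulated data. There are 2 arrays per group, which limits the precision.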

Additional observations from a re-analysis of the deposited data

Results flagged for a closer look

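In the following results the single array pairs of the 2 time points, or of the 2 shRNAs, had opposite signs, with 1 array against 1. The difference between them was not tested, and the values are those of the brightest probe of each gene under the main scaling. For the ALKBH3 shRNA against the control, 96 h minus 48 h, the median of the cytosolic genes changed by 0.132 and that of the mitochondrial genes by 0.0697. The opposite signs depended on the scaling: the authors' normalized values gave -0.0775 and -0.0256 for the cytosolic and 0.0042 and 0.0676 for the mitochondrial genes, and quantile normalization 0.0104 and 0.0565 for the latter. Single genes changed by 0.46 for RPL5, 0.36 for RPL22, 0.23 for RPS6, 0.20 for RPL11, 0.16 for MRPL12, 0.12 for RPL26, 0.115 for RPL26L1, 0.0517 for RPL39 and -0.42 for RPS19. The other probe of RPS19 changed the opposite way, from -0.0906 to 0.0697, and that of RPL22 was higher at both times (0.0489 and 0.14). For 96 h against 48 h, ALKBH3 shRNA minus control shRNA, the cytosolic median changed by 0.117. With the authors' values there was no such change (-0.042 and -0.0419), and with normexp and quantile normalization the medians were -0.0542 and -0.0293. The same 4 values give for each gene the same change, so RPL5 (0.46), RPL22 (0.36), RPS6 (0.23), RPL11 (0.20), RPL26 (0.12), RPL26L1 (0.115) and RPS19 (-0.42) recur, and RPL3 (0.28), RPLP2 (0.11) and RPL10L (0.0676) join them.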

How the results depend on the processing

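No member passed the 2-fold cutoffs or an adjusted p below 0.05 under any alternative. Of 84 class medians recomputed, 6 changed sign. The SD between the pairs of arrays was 0.0933 for the cytosolic and 0.0493 for the mitochondrial median by shRNA, larger than these medians themselves. A median can therefore move by less than this SD and still change sign. By that wide measure 78 of the 84 moved less. The others came from leaving out 1 array, which moved the shRNA medians between -0.082 and -0.002 (cytosolic) and -0.051 and 0.077 (mitochondrial) and their difference between -0.128 and 0.0189, and over time the medians between -0.0719 and 0.0349 and 0.0646 and 0.111 and their difference between -0.153 and -0.0619. The shRNA median of the mitochondrial genes was -0.0058 with centring on the median. Counts at an unadjusted p below 0.05 were small and moved more. The share of all genes past this threshold was taken for the main setting only. The counts under the alternatives therefore do not set the members apart from all genes. By shRNA, mitochondrial genes lower were 0 with normexp, normexp and quantile, quantile, the 75th percentile over detected probes, the authors' values or no filter. Cytosolic genes higher were 1 with normexp, the authors' values or the block, and mitochondrial genes higher 1 with normexp and quantile. The time point as a replicate block gave 5 cytosolic genes lower and 2 mitochondrial higher and 3 lower, and the methods' t-test 4, 4 and 4. Over time, cytosolic genes lower were 6 with normexp, 4 with normexp and quantile, 3 with the authors' values, 0 with quantile, median centring or the mean over probes, 5 over probes, 3 with the shRNA as a replicate block and 3 with the t-test. Mitochondrial genes higher were 9 with normexp, 9 with normexp and quantile, 7 with median centring, 8 with the authors' values, 10 with the block and 10 with the t-test, and lower 2, 2 and 2 with normexp, normexp and quantile and the authors' values, 1 with the mean over probes, over probes and with the block, and 2 with the t-test. Leaving out 1 array gave by shRNA 0 cytosolic higher, 0 to 1 lower and 0 mitochondrial lower, and over time 0 to 1 cytosolic higher, 0 to 1 lower and 0 to 2 mitochondrial higher. An arm left with 1 array was assumed to vary like the other, and its difference then also held part of that of the other factor. Of 1089 values of named genes, 70 changed sign, all but 2 of them from values smaller than their own standard error. Those 2 were of MRPS18B over time, 0.16, which was -0.011 with normexp and -0.0148 with the authors' values. The cause was not tested. With 2 arrays per group only large differences can pass the adjusted test.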
